A study of Homo sapiens with 4 samples.

Results

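The MYC, MAX and MXD network was examined in poly(A) RNA of K562 cells before and after hemin. Its 10 genes, MYC, MYCN, MYCL, MAX, MXD1, MXD3, MXD4, MXI1, MNT and MGA, were taken by symbol from the 61498 genes in the files, and each symbol belonged to a single gene ID. K562 is an established human erythroleukaemia line that can be moved toward the erythroid state. The untreated group held 2 libraries, and the hemin group held 2 libraries from cells kept for 108 h in 50 µM hemin, an iron-containing porphyrin. Both groups were the same line in the same medium, and the treatment protocol states that hemin at this dose left proliferation unaffected. Nothing in the labels says whether the replicates came from separate cultures, so each p-value measures only the spread between these libraries, which may be technical.

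MYC proteins bind DNA as dimers with MAX and activate genes for growth, ribosome assembly and metabolism. The MXD proteins (MXI1 is one of them) and MNT compete for the same partner and recruit the SIN3 and histone deacetylase corepressors to the same E-box element, which has the core sequence CACGTG. MGA is a large MAX partner found in a Polycomb complex, PRC1.6. In blood cells, high MYC goes with proliferating progenitors and the MXD genes are known to come on during terminal maturation.

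The expected counts summed to between 7455447 and 8241534 per library, and 12.8% to 13.6% of them lay on the mitochondrial genome. The cells carried the markers of the line. All 10 erythroid leukaemia markers were tested, and their summed level was 5568 to 5800 TPM without hemin and 6650 to 7107 TPM with it. TPM is a relative transcript abundance that takes transcript length into account. The markers of other cells were low, with summed levels of 4.69 to 7.3 TPM before and 3.87 to 4.21 TPM after hemin for 6 megakaryocyte genes, of 3.13 to 3.15 TPM and 2.17 to 2.45 TPM for 6 myeloid genes, and of 2.63 to 3.04 TPM and 0.54 to 1.75 TPM for 5 lymphoid genes. PF4, CD3E and CDH1 were at 0 counts in every library. The stromal and epithelial list summed to 47.6 to 51.4 TPM before and 47.0 to 53.5 TPM after hemin, most of it EPCAM. In the same list COL1A2 was detected, at a mean of 4.99 TPM before and 3.4 TPM after hemin.

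MYC and MGA rose after hemin, and no network gene fell past the threshold. Of the 9 network genes that passed the filter on low counts, edgeR's quasi-likelihood test on expected counts called 2 higher and 0 lower, with Benjamini-Hochberg adjustment over all 14458 genes and a threshold of 0.05. Over all genes tested 7.01% were called higher and 7.14% lower. MYC and MGA are also the most deeply read genes of the network, and among the 3370 tested genes with a mean of at least 500 counts 19.5% were called higher and 9.53% lower. The other 7 tested genes had log2 fold changes from -0.46 to 0.18. Without the adjustment, MXD3 also passed 0.05 downward. DESeq2 called 2 higher and 0 lower, beside 589 and 479 over all genes. In scaled counts, both hemin-treated libraries stood above both untreated libraries in 4 genes (MYC, MGA, MNT and MXD1) and below them in 3 (MXD3, MYCL and MXI1). The same was seen in 28.1% of all tested genes upward and in 29.3% downward, so such an order in 2 against 2 libraries is common.

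**Figure D1:**
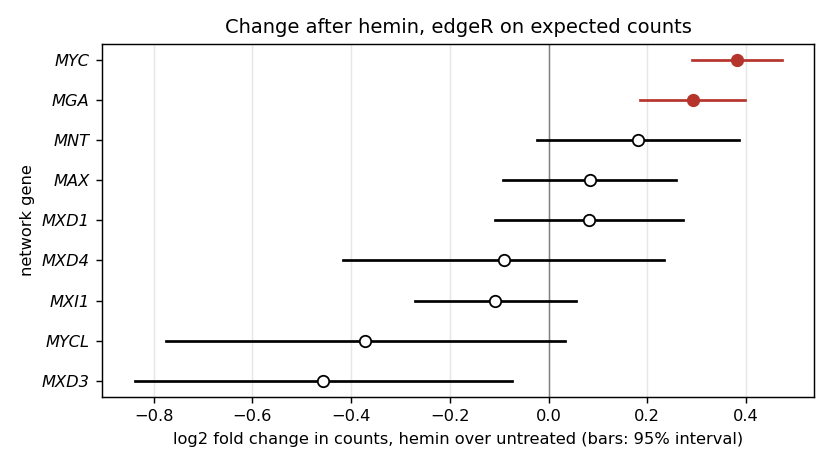
Log2 fold change of counts, hemin over untreated (horizontal axis), for the 9 tested network genes (vertical axis), with 95% intervals from edgeR's quasi-likelihood fit as bars and filled red points for genes called at an adjusted p under 0.05. The intervals of MYC and MGA lie above 0, that of MXD3 lies below 0 without passing the adjusted threshold, and the others include 0.

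MYC (ENSG00000136997) lies on the plus strand of chromosome 8 from 127735434 to 127742951 in GRCh38 and is the activator of the network in these cells. Its expected counts were 2730 and 2687 without hemin and 3412 and 3689 with it. Both treated libraries were higher, and the gap between the groups was far wider than the gap within them. The log2 fold change was 0.38 (standard error 0.04, 95% interval 0.29 to 0.47, edgeR adjusted p = 6.7e-04), or a rise of 1.3-fold. Per length, MYC stood at 236 ± 3.2 TPM before hemin and 294 ± 7.37 TPM after it (SD, n = 2). Leaving out any one library kept the log2 fold change between 0.35 and 0.41 and the call, and DESeq2 gave 0.39 (adjusted p = 1.8e-11). On the log2(TPM + 1) scale limma gave 0.31 with an adjusted p of 0.0841, above the threshold. RNA from the antisense gene CASC11, which overlaps MYC over 3554 bases, was read by at most 3.42 counts in a library.

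The other MYC paralogs were scarce. MYCL (ENSG00000116990; chromosome 1, minus strand, 39895428 to 39902256) was first described in lung cancer and encodes a weaker activator of the same kind. It had 79 and 93.2 counts in untreated cells and 60 and 74 counts after hemin, a log2 fold change of -0.37 (95% interval -0.77 to 0.03, edgeR adjusted p = 0.207). Its hemin-treated libraries were the lower ones, but the interval reaches 0. MYCN (ENSG00000134323; chromosome 2, plus strand, 15940550 to 15947007), the neural and embryonic paralog, had 1 count in each untreated library and 0 in each hemin-treated one. Both groups lie at or under the 3 counts that a count of 0 allows, which is 0.364 to 0.402 CPM (counts scaled to library size), so no fold change is given and no difference was detectable at this depth. Its antisense gene MYCNOS had at most 3 counts.

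MAX (ENSG00000125952; chromosome 14, minus strand, 65006174 to 65102695), the common partner, showed no detectable change. Its counts were 422 and 371 in untreated cells and 424 and 420 in hemin-treated cells, and the groups overlapped once scaled. The log2 fold change was 0.08 (95% interval -0.09 to 0.26, edgeR adjusted p = 0.533), so a rise as large as that of MYC lies outside the interval. Its level was 48.0 ± 3.34 TPM and 48.1 ± 0.389 TPM (SD, n = 2). MAX spans the opposite strand of FNTB over 56479 bases, and FNTB was read by 78.2 to 90.0 counts per library. The read-through gene CHURC1-FNTB on the same opposite strand had 30.4 and 21.4 counts before and 36.1 and 47.7 after hemin. The labels list forward and reverse signal tracks for each group, but the counting options in the methods name no strand setting, so reads of such pairs cannot be told apart with certainty where their exons meet.

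MGA (ENSG00000174197) lies on the plus strand of chromosome 15 from 41621134 to 41773081. It was read by 1306 and 1164 counts in untreated cells and by 1449 and 1592 counts in hemin-treated cells. Both treated libraries stood above both untreated ones. The log2 fold change was 0.29 (standard error 0.047, 95% interval 0.19 to 0.40, edgeR adjusted p = 0.00465), a rise of 1.23-fold, and it was 0.25 to 0.34 with one library left out, still called. DESeq2 gave 0.30 (adjusted p = 6.2e-04). In TPM the rise was smaller and was not called, with 24.3 ± 2.37 TPM in untreated cells and 27.3 ± 0.948 TPM after hemin (SD, n = 2). On the log2(TPM + 1) scale limma gave 0.16 with an adjusted p of 0.506.

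Among the repressors, MNT and MXD1 tended upward in counts and MXD3, MXI1 and MXD4 downward, and none passed the adjusted threshold. MNT (ENSG00000070444; chromosome 17, minus strand, 2384073 to 2401104), which is present in resting and growing cells alike, had 318 and 295 counts in untreated cells and 362 and 336 counts in hemin-treated cells. Its log2 fold change was 0.18 (95% interval -0.02 to 0.39, edgeR adjusted p = 0.227). A lncRNA gene on the opposite strand, ENSG00000262456, took 0 and 19.7 counts in untreated cells and 28.3 and 26.9 counts after hemin, and MNT had a posterior SD, the uncertainty RSEM gives to the division of shared reads, of 1.5% to 2.75% of its count. With the reads of that gene added to MNT, an alternative chosen after the values were seen, the log2 fold change was 0.24 (edgeR adjusted p = 0.106).

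MXD3 (ENSG00000213347; chromosome 5, minus strand, 177301461 to 177312757), the MXD family member linked to S phase and proliferation rather than maturation, had the lowest fold change of the network. It was read by 79.5 and 77.2 counts in untreated cells and by 54.9 and 60.3 counts in hemin-treated cells. The groups were clearly apart, but the counts were small, and the log2 fold change of -0.46 (standard error 0.17, 95% interval -0.84 to -0.08) had an unadjusted p of 0.0239 and an edgeR adjusted p of 0.105. It stayed between -0.47 and -0.44 with any one library left out. The division of reads adds to the doubt, since the posterior SD was 6.92% to 10.4% of the count, the highest among the tested genes of the network. MXD3 overlaps RAB24 on its own strand over 2284 bases and PRELID1 on the other strand over 3151 bases, and reads shared with either cannot be assigned with certainty. RAB24, a small GTPase, had 499 and 455 counts before and 383 and 374 after hemin, so it was lower in both treated libraries, as MXD3 was. PRELID1, a mitochondrial lipid transfer protein, had 1016 and 1001 counts before and 1068 and 1149 after. The part of either neighbour in the MXD3 values was not tested.

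MXI1 (ENSG00000119950; chromosome 10, plus strand, 110207605 to 110287365), the best read of the MXD genes, had 364 and 339 counts in untreated cells and 311 and 345 counts in hemin-treated cells. After scaling the treated libraries were the lower ones, with a log2 fold change of -0.11 (95% interval -0.27 to 0.06, edgeR adjusted p = 0.372). MXD1 (ENSG00000059728; chromosome 2, plus strand, 69897688 to 69942945), the classical differentiation-linked member, had 247 and 223 counts in untreated cells and 236 and 264 counts after hemin. Its log2 fold change was 0.08 (95% interval -0.11 to 0.27, edgeR adjusted p = 0.598). MXD4 (ENSG00000123933; chromosome 4, minus strand, 2247432 to 2262109) had 160 and 131 counts in untreated cells and 148 and 126 counts in hemin-treated ones, and its groups overlapped. Its log2 fold change was -0.09 (95% interval -0.42 to 0.23, edgeR adjusted p = 0.731), and it changed sign to 0.02 without untreated replicate 1 and to 0.08 without hemin replicate 2. For MXD1 a rise beyond 1.21-fold lies outside the 95% interval. MXD1 shares 7888 bases of its own strand with SNRNP27, a splicing factor gene read by 214 to 295 counts per library.

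Per length, MYC was by far the most abundant network transcript. MYC ranked 440th of the tested genes in untreated cells and 352nd after hemin by mean TPM. Next came MAX at 48.0 TPM and MXI1 at 40.6 ± 1.86 TPM in untreated cells (SD, n = 2), then MGA at 24.3 TPM. Below MGA, MXD3 at 15.9 ± 0.00707 TPM and MNT at 15.6 ± 1.21 TPM did not differ beyond their spread. MXD4 followed at 12.3 ± 0.0707 TPM, MXD1 at 10.2 ± 0.651 TPM and MYCL at 5.77 ± 0.573 TPM. After hemin MXI1 stood at 31.1 ± 3.21 TPM and MNT at 18.3 ± 0.566 TPM. MXD1 at 10.6 ± 0.417 TPM, MXD4 at 10.2 ± 1.1 TPM and MXD3 at 8.56 ± 0.856 TPM (SD, n = 2) then followed. The means of MXD1 and MXD4 differed by less than the SD of MXD4.

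**Figure D2:**
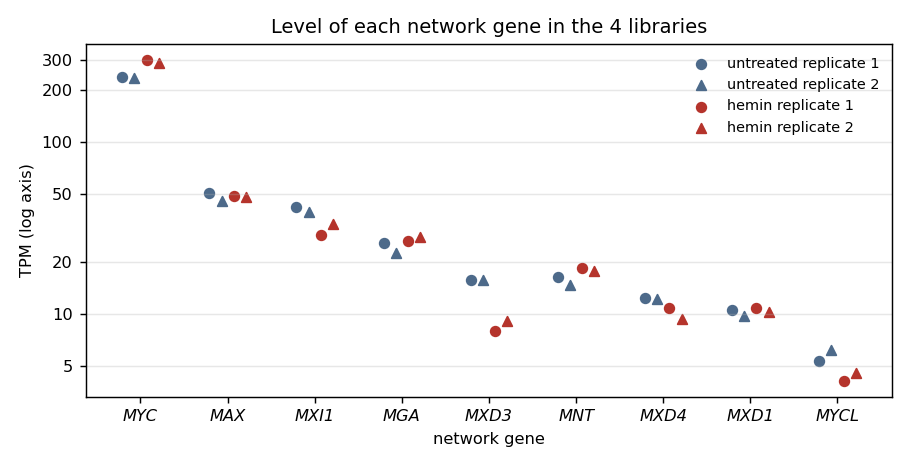
Level of 9 network genes in TPM (vertical axis, logarithmic) for each gene (horizontal axis, ordered by untreated mean), with 1 point per library, blue for untreated and red for hemin, circles for replicate 1 and triangles for replicate 2. MYC lies between 234 and 299 TPM, several times above MAX, and MXD3 shows the widest gap between the groups. MYCN, at 0.11 TPM in untreated cells and 0 TPM after hemin, is not drawn.

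The size of the MXD3 and MXI1 differences depended on the scale. In mean TPM, MXD3 differed by -0.89 on the log2 scale and MXI1 by -0.39, against -0.46 and -0.11 in counts. TPM divide by the length of the transcripts that RSEM assigns, and that length differed between the groups for both genes. The isoform-weighted length of MXD3 was 942 and 947 bases in untreated cells and 1326 and 1157 bases in hemin-treated cells, 1.31 times longer. A ratio as far from 1 was seen in 4.45% of the tested genes. For MXI1 the lengths were 1595 and 1641 bases before and 2045 and 1790 bases after hemin, a ratio of 1.19 that 11.1% of tested genes matched or passed. MGA was also longer after hemin, with 8999 and 9544 bases before and 10116 and 9632 bases after. The other 6 tested network genes had lengths that overlapped between the groups, and over all tested genes 29.5% did not overlap. These lengths are estimates from short reads, spread over 9 annotated transcripts for MXD3 and 38 for MXI1, and they were not tested. On the log2(TPM + 1) scale limma gave an adjusted p of 0.0917 for MXD3 and 0.169 for MXI1.

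**Figure D3:**
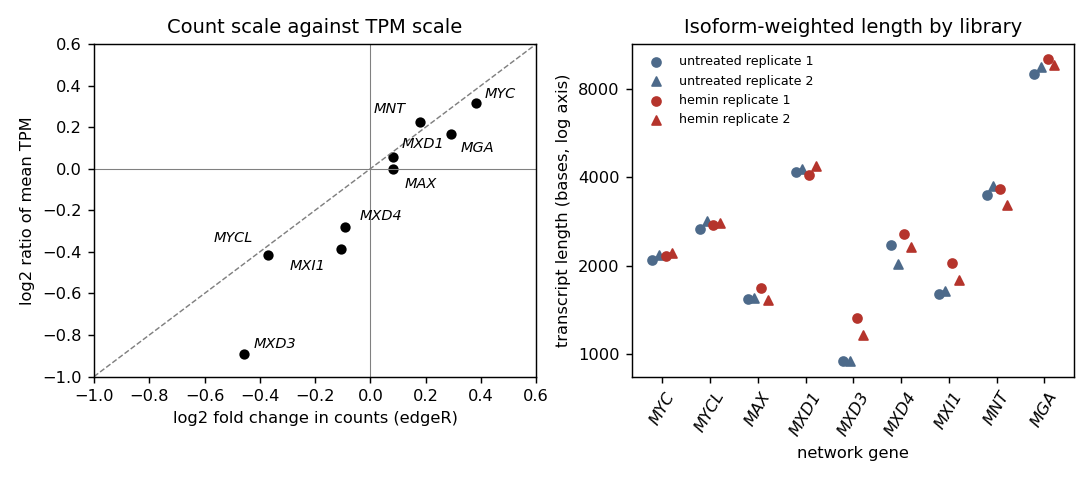
Left, log2 fold change in counts (horizontal axis) against the log2 ratio of mean TPM (vertical axis) for the 9 tested network genes, with the dashed line marking equal values. Right, isoform-weighted transcript length in bases (vertical axis, logarithmic) by gene and library, blue for untreated and red for hemin. MNT lies above the dashed line and the other genes below it, MXD3 and MXI1 furthest. MXD3, MXI1 and MGA have longer estimated transcripts in both hemin-treated libraries.

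The level of MYC was also set against its partner and its competitors in each library, as a description. The ratio of MYC to MAX TPM was 4.73 and 5.12 in the untreated libraries and 6.19 and 6.04 in the hemin-treated libraries. Against the summed TPM of MXD1, MXD3, MXD4, MXI1 and MNT it was 2.45 and 2.54 before and 3.87 and 3.604 after hemin. Both ratios were higher in both treated libraries. The summed repressor level was 97.3 and 92.0 TPM before hemin and 77.3 and 80.1 TPM after it. Within it, the share of MXD3 was 16.3% and 17.3% before and 10.3% and 11.4% after, and that of MNT was 17.0% and 16.1% before and 24.2% and 22.3% after. With every gene's length held fixed across libraries, a setting chosen after the values were seen, the ratio of MYC to the repressors was 2.54 and 2.73 before and 3.52 and 3.69 after. In that setting the share of MXD3 was 15.0% and 15.8% before and 11.4% and 12.2% after, and that of MNT 18.0% and 18.2% before and 22.7% and 20.4% after, smaller moves than in TPM. No model was fitted to these ratios, and the exact permutation test over 2 against 2 libraries cannot go below a two-sided p of 0.333. They concern RNA, not protein.

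**Figure D4:**
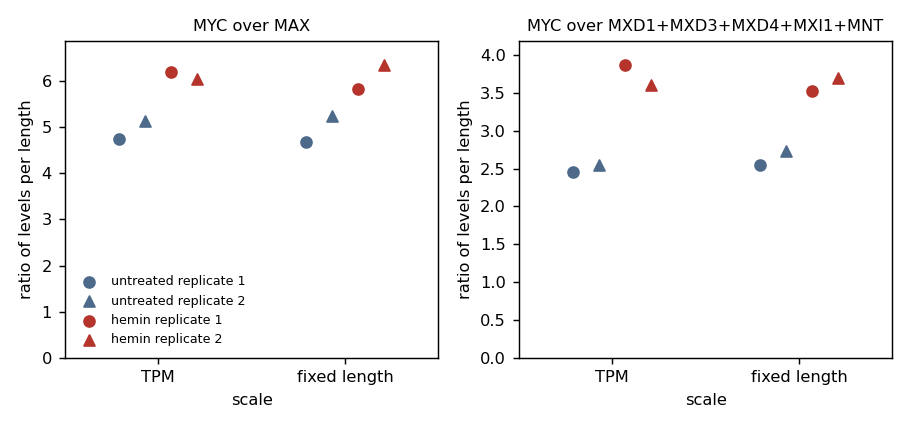
Ratio of the MYC level to that of MAX (left) and to the sum of 5 repressor genes (right) in each library (vertical axes, from 0), from TPM and from counts at a fixed length (horizontal axes). Blue marks untreated and red marks hemin-treated libraries, and the red points lie above the blue ones in every panel.

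Genes known as MYC targets were counted next, from lists written with earlier results of these data known, so their counts are descriptions. Of 57 well-known MYC-activated genes, all tested, edgeR called 35 higher, 0 lower and 22 in neither direction, with a median log2 fold change of 0.23 against -0.005 over all genes tested. That is 61.4% called higher, beside 7.01% of all genes and 19.5% of those with at least 500 counts. Among them ODC1, the rate-limiting enzyme of polyamine synthesis, rose from 1236 and 1242 counts to 1702 and 1826 (log2 fold change 0.50, edgeR adjusted p = 3.5e-04). NOP58, a core protein of box C/D snoRNPs, also rose by 0.50 on the log2 scale (edgeR adjusted p = 3.8e-04), and the importin IPO4 by 0.44 (edgeR adjusted p = 0.00462). The list is deeply read, with a median of 1041 counts per gene, and many of its members act in ribosome assembly. LDHA and CAD, other textbook targets, had log2 fold changes of 0.02 and 0.04 and were not called. CCND2, picked out here after its value was seen, was the lowest at -0.15 (edgeR adjusted p = 0.0516). At an unadjusted p under 0.05, 42 stood higher and 1 lower, and DESeq2 called 28 higher and 0 lower. Over all genes DESeq2 called 589 higher and 479 lower. With library size only, posterior mean counts, a filter at 20 counts or mitochondrial genes left out, 1 gene of the list was called lower. For this and the other lists, no share over all genes was taken at the unadjusted threshold. With any one library left out fewer were called higher, both in the list and over all genes, and fewest without untreated replicate 1. On the log2(TPM + 1) scale limma called 1, beside 14 called higher over all genes.

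Of 18 genes known to be repressed by MYC, 12 were tested, and edgeR called 8 lower, 1 higher and 3 in neither direction, with a median of -0.45. That is 66.7% of the tested genes called lower, beside 7.14% of all genes. DESeq2 called 6 lower and 1 higher, beside 479 lower and 589 higher over all genes. CDKN1A, the p21 inhibitor of cyclin-dependent kinases, fell from 83 and 61 counts to 32 and 36 (log2 fold change -1.09, standard error 0.22, edgeR adjusted p = 0.0131). This call was lost when untreated replicate 1 was left out (edgeR adjusted p = 0.0932). NDRG1, a differentiation and stress gene, fell from 132 and 130 counts to 70 and 69.6 (log2 fold change -0.91, edgeR adjusted p = 0.00395). CEBPD, a myeloid transcription factor, fell by 0.72 on the log2 scale (edgeR adjusted p = 0.0493), but this was lost without either untreated replicate or hemin replicate 1 and with DESeq2, with adjusted p-values of 0.119 to 0.19. The member that went the other way was FTH1, the heavy chain of ferritin and an iron-responsive gene, at 0.83 (edgeR adjusted p = 1.3e-05). With any one library left out fewer were called lower, both in the list and over all genes, and fewest without untreated replicate 1. Limma on TPM called none lower, beside 33 and 34 over all genes on the log2(TPM + 1) and log2(TPM + 0.1) scales.

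**Figure D5:**
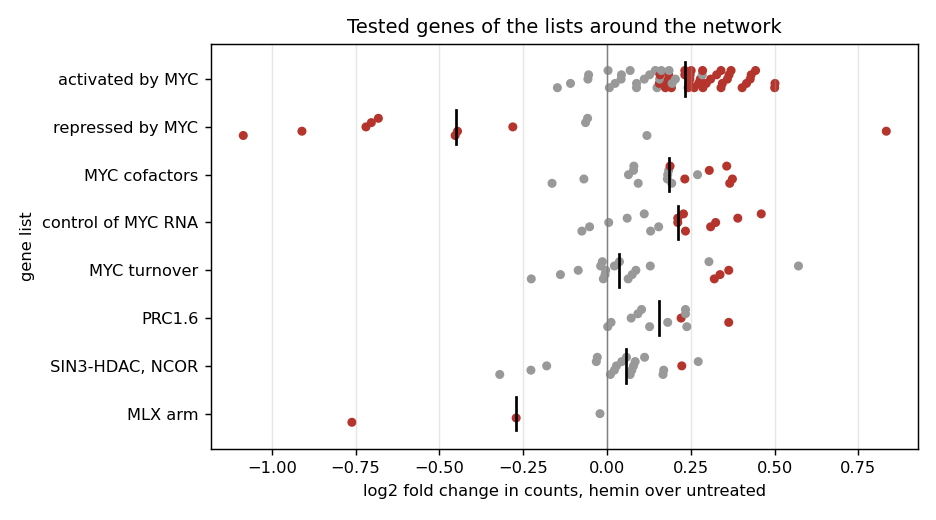
Log2 fold change of counts after hemin (horizontal axis) for each tested gene of the 8 lists around the network (vertical axis), red where called at an adjusted p under 0.05 and grey otherwise, with the list median as a black bar. Genes activated by MYC lie mostly right of 0 with a median of 0.23, and those repressed by MYC mostly left with a median of -0.45, FTH1 being the red point at the far right.

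The E-box that the network binds was looked up in RefSeq promoters of GRCh38.p14, each 300 bases long from 250 bases before the start of transcription to 50 after it. The motif searched was CACGTG, which reads the same on both strands. It occurred in 7.26% of 35116 promoters, and 8.77% of 27305 genes had it in at least one promoter. For the network, 14 promoters of 9 genes were found and 2 held the motif, those of MNT and MXD4. The set held no promoter of MYC, so that gene was not searched. Of the MYC-activated genes 48 were found, and 27 of these had it, namely 14 of 29 genes called higher and 13 of 19 not called. The windows of 30 bases below show these motifs in capitals for the 2 network genes and for the 2 named MYC-activated genes that hold it. A match is a description of the letters and not evidence of binding.
MNT, chr17:2401236-2401265, minus strand: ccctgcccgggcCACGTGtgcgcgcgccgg
MXD4, chr4:2262330-2262359, minus strand: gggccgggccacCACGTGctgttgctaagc
ODC1, chr2:10448024-10448053, minus strand: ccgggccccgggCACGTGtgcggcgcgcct
ODC1, chr2:10447990-10448019, minus strand: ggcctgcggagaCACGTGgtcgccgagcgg
IPO4, chr14:24188828-24188857, minus strand: tgtcagaacctcCACGTGctgtccctcccc

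The motif began 193 bases before the start in MNT and 238 bases before it in MXD4. In ODC1, which rose, one copy began 29 bases before the start and another at base 6 of the transcript, and in IPO4 it began 29 bases before the start.

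Among the protein partners, 6 of 17 cofactors of MYC were called higher by edgeR and 0 lower, with a median log2 fold change of 0.18. The share called higher was 35.3%, beside 7.01% of all genes and 19.5% of those with at least 500 counts, and the list had a median of 529 counts. At an unadjusted p under 0.05 the counts were 11 and 0, with no share over all genes taken at that threshold. KAT5, the TIP60 acetyltransferase, had 0.37 (edgeR adjusted p = 0.0155), EP300, the p300 acetyltransferase, 0.37 (edgeR adjusted p = 0.00332), and PAF1, a subunit of the polymerase-associated elongation complex, 0.36 (edgeR adjusted p = 0.0133). KAT5 and PAF1 were not called by DESeq2 (adjusted p = 0.0809 and 0.0614), nor without either untreated replicate, where 1 untreated library is left. Their log2 fold changes there were 0.34 and 0.40 for KAT5 and 0.35 and 0.36 for PAF1. Fewer of the list were called without either untreated replicate, as was so over all genes. DESeq2 called 3 of the list higher, beside 589 genes called higher over all genes.

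The corepressors of MXD and MNT had few calls. Of 19 SIN3, histone deacetylase and NCOR genes edgeR called 1 higher and 0 lower, with a median of 0.06, and DESeq2 gave the same counts. At an unadjusted p under 0.05 there were 2 and 0, with no share over all genes taken at that threshold. The 1 gene is 5.26% of the list, beside 7.01% of all genes and 19.5% of those with at least 500 counts. The list had a median of 507 counts. The called gene was RBBP4, a histone chaperone shared by several chromatin complexes, at 0.22 (edgeR adjusted p = 0.00704). SIN3A, the scaffold, had a log2 fold change of 0.17 (edgeR adjusted p = 0.0829) and HDAC1 one of -0.03 (edgeR adjusted p = 0.721). In the PRC1.6 complex that holds MGA, edgeR called 2 of 12 genes higher and 0 lower. At an unadjusted p under 0.05 the counts were 7 and 0, again with no share over all genes. DESeq2 called 0 and 0, beside 589 higher and 479 lower over all genes. The share called by edgeR was 16.7%, beside 7.01% of all genes and 19.5% of those with at least 500 counts. All 12 values were above 0, with a median of 0.15 against -0.005 over all genes tested. The lowest were close to 0, with RING1 at 0.002 (95% interval -0.19 to 0.20) and CBX1 at 0.01 (95% interval -0.15 to 0.18). The called genes were RYBP, at 0.36 (edgeR adjusted p = 0.0189), and the E2F partner TFDP2, at 0.22 (edgeR adjusted p = 0.0243). Neither was called without either untreated replicate, without hemin replicate 2 or by DESeq2, with adjusted p-values from 0.0644 to 0.112.

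Of 15 genes that act on MYC transcription or on its RNA, edgeR called 8 higher and 0 lower, with a median of 0.21. At an unadjusted p under 0.05 the counts were 10 and 0, with no share over all genes to set beside them. DESeq2 called 6 and 0, beside 589 higher and 479 lower over all genes. The list is deeply read, with a median of 1520 counts, and its share called higher was 53.3%, beside 19.5% of genes with at least 500 counts and 7.01% of all genes. IGF2BP1, which binds and stabilises MYC mRNA, rose from 2356 and 2147 counts to 2820 and 3112 (log2 fold change 0.39, edgeR adjusted p = 6.7e-04). CTCF, the insulator protein, had 0.32 (edgeR adjusted p = 0.0222), lost without untreated replicate 2 (adjusted p = 0.112) and with DESeq2 (adjusted p = 0.0549). TCF7L2, a WNT effector, had 0.46 (edgeR adjusted p = 0.0318), and this call was lost with any one library left out (adjusted p-values of 0.054 to 0.135), with DESeq2 (0.182) and with the replicate block (0.0511). Without either untreated replicate fewer of the list were called higher, as was so over all genes. PVT1, the noncoding neighbour of MYC, was read by 336 and 301 counts before and 287 and 321 counts after hemin, a log2 fold change of -0.07 (edgeR adjusted p = 0.577) beside the rise of MYC.

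Of 19 genes that set the stability of MYC protein, edgeR called 3 higher and 0 lower, with a median of 0.04. At an unadjusted p under 0.05 the counts were 4 and 0, with no share over all genes to set beside them. DESeq2 called 3 and 0, beside 589 higher and 479 lower over all genes. The share called higher, 15.8%, lies between the 7.01% of all genes and the 19.5% of genes with at least 500 counts. The deubiquitinases USP37 and USP36 had log2 fold changes of 0.36 (edgeR adjusted p = 0.0115) and 0.34 (edgeR adjusted p = 0.00404), the former being lost without untreated replicate 1 (adjusted p = 0.0713). SET, an inhibitor of protein phosphatase PP2A, rose from 6949 and 7016 counts to 8442 and 9094, by 0.32 on the log2 scale (edgeR adjusted p = 0.00175). The ubiquitin ligase subunits FBXW7 and SKP2 had -0.14 (edgeR adjusted p = 0.375) and 0.13 (edgeR adjusted p = 0.315). In the neighbouring MLX arm of the network, MLXIPL, the glucose-sensing factor ChREBP, fell from 234 and 194 counts to 109 and 145 (log2 fold change -0.76, edgeR adjusted p = 0.00531) and MLXIP by 0.27 on the log2 scale (edgeR adjusted p = 0.00494), while MLX, their shared partner, had -0.02 (edgeR adjusted p = 0.878). On the log2(TPM + 1) scale limma called neither MLXIPL (adjusted p = 0.0633) nor MLXIP (adjusted p = 0.15).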

How the data were processed

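Poly(A) RNA libraries of 2 untreated and 2 hemin-treated samples were compared. The authors trimmed reads with Trimmomatic 0.39 and ran RSEM 1.3.1 with STAR on GRCh38 with Ensembl annotation. The deposited expected counts are RSEM estimates of reads per gene, not normalized. The deposited TPM are scaled by effective length, which was 48.4 bases (median) below the length in each library, less than the mean fragment length the methods set. How this affects TPM of short transcripts was not tested. The deposited posterior means and standard deviations of the count, and the lengths in bases, are per-gene estimates treated as a non-negative signal. FPKM were not used. GENCODE 44 gave GRCh38 positions.

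Here counts were rounded, filtered by filterByExpr (14458 of 61498 genes), normalised (TMM) and fitted in edgeR 4.0.16 under R 4.3.3 (condition only, common dispersion 0.001178). The Benjamini-Hochberg threshold was 0.05. Library sizes were sums over all genes. Alternatives used limma 3.58.1 and DESeq2 1.42.0. The fit was also run on simulated data with a single dispersion for all genes and changes larger than those of MYC and MGA. That run cannot judge changes as small as theirs, and no support is drawn from it. Replicate pairs differed by more than counting noise (mean chi-square per gene 1.82 and 2.24, for pairs with over 20 counts). Intervals are at 95%, and the limits from a count of 0 cover counting error only.

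The members and lists were chosen with earlier results of these data known. Named genes were the 10 members, up to 3 called genes in each direction per list, and genes overlapping a member (for a list with no call, the gene of smallest p). Other genes were named after their values were seen.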

Additional observations from a re-analysis of the deposited data

How the results depend on the processing

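The calls of MYC and MGA held under 12 of 14 alternatives each, and were lost only under limma on log2(TPM + 1) and log2(TPM + 0.1), where 0 network genes were called higher. Of the named genes that edgeR called, limma on either TPM scale still called FTH1 only, with no change of sign. The log2 fold change of MYC ran from 0.31 to 0.41 and that of MGA from 0.16 to 0.34. No network gene was called lower under any of the 14 alternatives. MXD4 changed sign without untreated replicate 1 (0.019) and without hemin replicate 2 (0.078), in a leave-one-out range of -0.271 to 0.078. Over all genes, 1013 were called higher and 1033 lower. DESeq2 gave 589 and 479, limma on log2(TPM + 1) 14 and 33, and limma on log2(TPM + 0.1) 15 and 34, and the cause was not tested. With one library left out the counts ran from 451 to 856 higher and from 487 to 862 lower, with fewer samples behind each fit. The lowest were without untreated replicates 1 (451 and 487) and 2 (521 and 530). Library size only gave 730 higher and 1349 lower. The ratio of MYC to the repressors, hemin over untreated, was 1.496 from TPM and 1.37 at a fixed length. With the replicate number as a block, 854 genes were called higher and 884 lower, and of the named genes the block ended only the call of TCF7L2. The labels do not say that a number marks a shared batch, and the replicate differences of the 2 groups did not correlate across genes (r = 0.005). Depth limits the less read genes: the 95% interval of the log2 fold change was 0.182 wide for MYC and 0.808 for MYCL.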
